A study of Mus musculus with 201 samples.

Results

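The genes described here are 41 lysosomal genes of the mouse: 12 proteases, 11 glycosidases, 3 sulfatases, 5 enzymes of lipid breakdown, 4 soluble cofactors and 6 membrane proteins. They were taken from a list of lysosomal gene symbols, and every probe set annotated to 1 of these symbols alone was used, which gave 96 of the 45037 probe sets tested. Each gene is followed through its brightest probe set, and further probe sets are named where they went another way. The genes are 41 of 18193 with a symbol of their own on the array.

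The study measured RNA from pooled hippocampi of untreated mice on 201 Affymetrix M430 2.0 arrays, to survey how gene expression in this brain region differs between 100 mouse strains. The tissue could include variable amounts of subiculum and fimbria, per the labels. Pools held 1 to 4 mice of 1 sex with a mean age of 41 to 196 days (median 62), except for 1 pool of both sexes. Most strains had 2 arrays, usually 1 of each sex. The BXD panel held 68 recombinant inbred strains descended from DBA/2J and C57BL/6J, on 134 arrays of mice aged 54 to 196 days. The CXB panel held 13 recombinant inbred strains descended from BALB/cByJ and C57BL/6ByJ, on 27 arrays of mice aged 41 to 80 days. The inbred strains were the wild-derived CAST/EiJ, PWD/PhJ, PWK/PhJ and WSB/EiJ on 7 arrays (58 to 83 days) and 13 classical strains on 27 arrays (51 to 96 days). The classical strains were 129S1/SvImJ, A/J, AKR/J, BALB/cByJ, BALB/cJ, C3H/HeJ, DBA/2J, KK/HIJ, LG/J, NOD/LtJ, NZO/HlLtJ, C57BL/6ByJ and C57BL/6J. The reciprocal hybrids B6D2F1 and D2B6F1 filled 6 arrays (63 to 72 days). No mouse carried an engineered allele or received an agent according to the labels.

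Values are in PDNN units, a probe-level summary that behaves like a logarithm of unstated base, so differences stay in these units without folds. Pools of different sex hold different mice, but for arrays of the same strain and sex the labels do not say so. P-values cover only the spread between pooled samples. Neuron markers had mean array values of 9.85 to 10.53 and dentate granule cell markers of 8.0 to 8.8, while choroid plexus markers, which belong to neighbouring tissue, ran from 7.75 to 9.28. For 7 arrays the header gave another strain, sex or batch than the label, among them both BXD14 arrays, 1 KK/HIJ array and PWD/PhJ replicate 1, which was headed PWK/PhJ. The labels were used throughout. BXD9 rested on 1 fitted array, since its other pool was of mixed sex, and it stood apart: it had the lowest value of all BXD strains for 18 of the 41 genes, against at most 5 for any other BXD strain.

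Lysosomes are acidic organelles in which hydrolases take apart proteins, sugar chains, sulfated glycans and lipids delivered by endocytosis and autophagy. The soluble enzymes depend on cofactors such as saposins, and membrane proteins protect the organelle's wall, move cholesterol and carry ions. Loss of a single enzyme causes storage disease in humans, often with damage to neurons or myelin, and in the brain microglia are rich in several cathepsins.

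Many lysosomal genes carry in their promoters the motif CACGTG, the core of the element bound by TFEB, a transcription factor that drives lysosome formation. RefSeq promoter windows (GRCm38.p6, 250 bases before to 50 bases after the gene start) were found for 37 of the 41 genes, all but Asah1, Ctsb, Ctsh and Npc1. The motif, which reads the same on both strands, was in at least 1 window of 13 of these 37 genes (35.1%) and of 2187 of all 27025 genes with windows (8.09%). Its longer form TCACGTGA, which contains it, was found for 5 of the 37 genes (13.5%), namely Cln3, Ctsa, Ctsd, Gla and Mcoln1, and for 304 of all genes (1.12%). A match describes the letters of the window and is not a measured binding site. The stretches below, read in the direction of transcription with CACGTG in capitals, are the upstream sites of 4 genes with the longer form, of Lamp1, whose window holds 4 sites upstream of the start, and of Gaa, which is among the genes that varied most between BXD strains.

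Cln3, chr7:126583341-126583368, minus strand: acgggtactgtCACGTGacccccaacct

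Ctsd, chr7:142387909-142387936, minus strand: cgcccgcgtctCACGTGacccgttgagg

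Gla, chrX:134601183-134601210, minus strand: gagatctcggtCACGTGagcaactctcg

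Mcoln1, chr8:3500463-3500490, plus strand: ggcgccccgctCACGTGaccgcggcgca

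Lamp1, chr8:13159122-13159149, plus strand: atgccgactggCACGTGaccacatcacg

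Gaa, chr11:119267812-119267839, plus strand: ttctgtgcgatCACGTGtttgactctga

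All 41 genes had a probe set, and their average over all arrays ran between 7.74 for Naglu, an enzyme of heparan sulfate breakdown, and 10.7 for Ids, the iduronate sulfatase. Levels of different probe sets are not compared further. The residual SD of the lysosomal genes had a median of 0.0987 units, against 0.0782 over all probe sets.

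Within the BXD panel, strain differences were found for 7 of the 41 lysosomal genes (17.1%), beside 6.95% of all probe sets with an adjusted p under 0.05 in limma's moderated F-test. Genes are counted here by their brightest probe set, while the share covers every probe set, dim ones included. Counted like the share, 11 of the 96 probe sets of the genes were called. The 7 genes were the glycosidases Gaa, Idua, Man2b1 and Manba, the sulfatase Arsa and the proteases Ctss and Ctsc. None of the 5 lipid enzymes, the 4 cofactors or the 6 membrane proteins was among them. The share of the variance that lay between strains, the intraclass correlation, was above 0 for 14 genes and at 0 for the others. In bulk tissue, fewer cells of a type and less RNA per cell cannot be told apart.

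**Figure D1:**
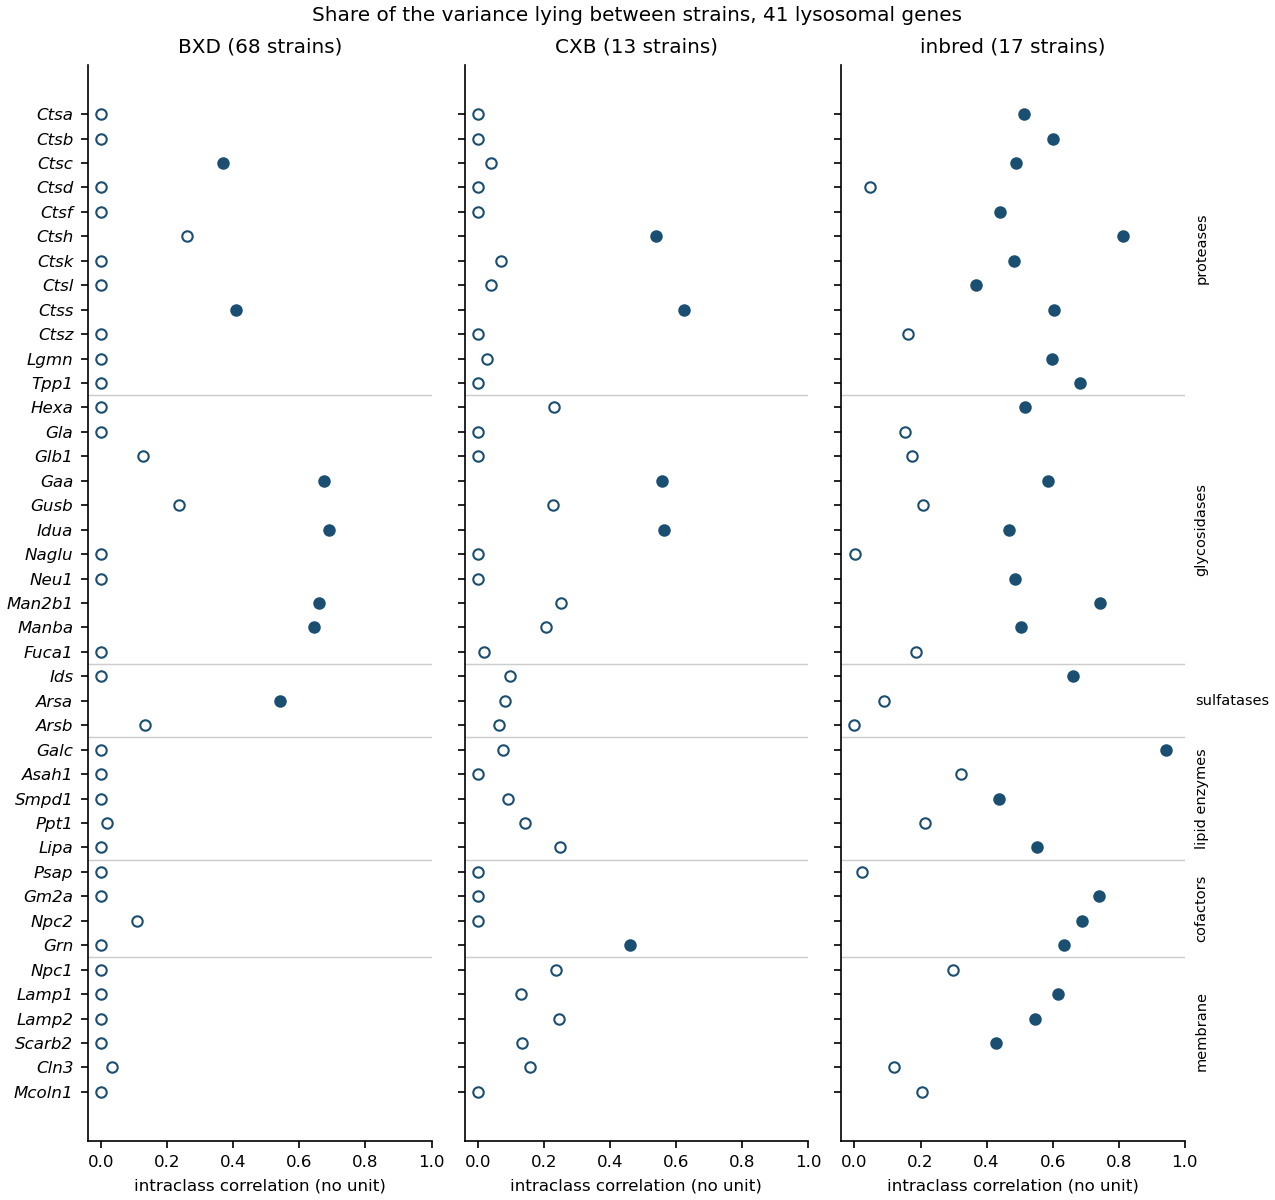
Intraclass correlation (no unit, horizontal axis) of the 41 lysosomal genes (rows, grouped by role) among 68 BXD, 13 CXB and 17 inbred strains. Filled points had an adjusted p under 0.05 in limma's F-test: 7 genes in BXD, 5 in CXB and 26 in inbred strains, with Galc farthest right among the inbred strains at 0.94.

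Gaa encodes the acid alpha-glucosidase that breaks down glycogen in lysosomes. Its fitted values ran from 9.31 in BXD9 to 9.90 in BXD94, with an intraclass correlation of 0.68 (adjusted p = 1.51e-10, limma). Fitted values are adjusted for sex and batch and so can lie outside a strain's arrays. The next lowest strain, BXD43, was at 9.36, and the quartiles of the 68 strains were 9.47, 9.65 and 9.72. The call rested on 1 probe set and 1 summary: the other Gaa probe set had an intraclass correlation of 0, and with the deposited RMA and MAS5 values of the same probe set it was 0.22 (adjusted p = 0.29) and 0.08 (adjusted p = 0.95).

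Idua, the alpha-iduronidase of heparan and dermatan sulfate breakdown, had the highest intraclass correlation in the panel, 0.69 (adjusted p = 6.66e-11, limma). Strain values ran from 8.10 in BXD79, whose 2 arrays read 8.12 and 8.01, to 8.43 in BXD86, whose single array read 8.44. Its second probe set also differed between BXD strains, with an intraclass correlation of 0.39.

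Man2b1, the lysosomal alpha-mannosidase, ran from 8.29 in BXD9 to 8.73 in BXD84, where the arrays read 8.68 and 8.70 (intraclass correlation 0.66, adjusted p = 3.70e-10, limma). Its second probe set was called as well, at 0.37. Manba, the beta-mannosidase that removes the last mannose of N-glycans, ran from 7.54 in BXD14 to 7.97 in BXD16 (0.64, adjusted p = 2.74e-10). The BXD16 arrays read 7.92 and 8.08 and those of BXD14 read 7.67 and 7.65. These strains were picked as highest and lowest from these arrays, so the gap between them is no further support. Both BXD14 arrays are among those whose headers name another strain.

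Arsa, the arylsulfatase A that desulfates the myelin lipid sulfatide, ran from 8.58 in BXD55 to 8.94 in BXD45 (intraclass correlation 0.54, adjusted p = 3.87e-06, limma). The BXD45 arrays read 9.01 and 8.90, and the single BXD55 array read 8.60. It was the only one of the 7 genes with no strain effect among the inbred strains in the same test. Whether its share differed between the panels was not tested.

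Ctss and Ctsc are proteases of immune cells: cathepsin S trims antigens, and cathepsin C activates granule proteases. Ctss ran from 8.93 in BXD9 to 9.71 in BXD13, the widest range of the 7 genes (0.41, adjusted p = 0.000821, limma). The BXD13 arrays read 9.63 and 9.79, whereas the fitted BXD9 array read 8.93 and the pool of mixed sex that was not fitted read 9.32. Ctsc ran from 7.89 in BXD28, with arrays at 7.73 and 7.94, to 8.47 in BXD94, with 1 array at 8.42 (0.37, adjusted p = 0.00276). Ctsh, the cathepsin H aminopeptidase, missed the threshold (0.26, adjusted p = 0.0561).

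Male and female pools are separate arrays, and their agreement over the 62 BXD strains with both describes how far a strain's level repeats. Pearson's r between the female and the male array was 0.68 for Idua, 0.66 for Gaa, 0.65 for Man2b1, 0.61 each for Arsa and Manba, 0.47 for Ctsc and 0.34 for Ctss. Each point is 1 strain, and the points share their batches. Over all 41 genes the median of r was 0.01. The genes named here were picked by their strain effects in these same arrays. Their higher r restates those effects and is no separate support.

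Further probe sets added 2 genes. A second Ctsl probe set (intraclass correlation 0.24) and another Lamp2 probe set (0.40) differed between BXD strains, while the brightest probe sets of both genes had an intraclass correlation of 0. Ctsl is cathepsin L, and Lamp2 is a membrane glycoprotein needed for autophagy.

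For the genes with an intraclass correlation of 0.5 or more, the genes whose BXD strain values were most alike lay close by on the same chromosome. Man2b1, on chromosome 8, was most like Trmt1 (r = 0.87, 0.40 Mb away) and Gadd45gip1 (0.83, 0.25 Mb), both on chromosome 8. Manba, on chromosome 3, was most like H2az1 (r = 0.91, 2.38 Mb) and, inversely, Cyp2u1 (-0.81, 4.20 Mb). Idua, on chromosome 5, was most like Rpap2 (r = 0.83, 1.06 Mb) and Zfp33b (0.77, 4.09 Mb). Arsa, on chromosome 15, went inversely with Cpne8 (r = -0.69, 1.01 Mb) and Rabl2 (-0.63, 0.11 Mb). Gaa, on chromosome 11, was most like Endov (r = 0.61, 0.22 Mb) and Rnf157 (0.61, 2.93 Mb). Among the 20 probe sets most alike, the gene's own chromosome held 16 for Man2b1, 16 for Manba, 15 for Arsa, 13 for Idua and 11 for Gaa, while these chromosomes held 3.86%, 3.97%, 3.05%, 4.90% and 6.05% of all probe sets in the same order. Positions are those of GRCm38.p6, and the correlations describe 68 strain values that share their batches, sex terms and stretches of parental chromosome.

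Between the BXD parents, 7 of 41 lysosomal genes and 10 of their 96 probe sets differed, beside 7.24% of all probe sets. The test was a limma contrast of DBA/2J (2 arrays) minus C57BL/6J (3 arrays). Lower in DBA/2J were 6 genes (2.63% of all probe sets were), namely Gaa, Idua, Man2b1, Manba, Gm2a and Ctsk, and 1 was higher (4.61% of all), namely Tpp1. Thus the 4 glycosidases that varied in the BXD panel were each lower in DBA/2J. Over all 41 genes the median difference was -0.04 units, against -0.02 over all probe sets.

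Manba read 7.61 and 7.71 in DBA/2J, against 7.84, 7.98 and 7.82 in C57BL/6J, a difference of -0.27 ± 0.07 (SE, adjusted p = 0.00664, limma). Man2b1 read 8.49 and 8.28 in DBA/2J, against 8.53, 8.68 and 8.68 in C57BL/6J (-0.25 ± 0.07, adjusted p = 0.00932). Gaa read 9.60 and 9.24 in DBA/2J, against 9.61, 9.78 and 9.82 in C57BL/6J (-0.31 ± 0.09, adjusted p = 0.0152). In each gene the DBA/2J arrays lay below all C57BL/6J arrays, but for Gaa the higher DBA/2J array nearly touched the lowest C57BL/6J array. Idua read 8.21 and 8.12 in DBA/2J, against 8.32, 8.26 and 8.34 in C57BL/6J (-0.16 ± 0.05, adjusted p = 0.0294). Again the groups did not overlap.

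Gm2a, the activator that presents GM2 ganglioside to hexosaminidase A, had the largest difference, -0.42 ± 0.12 units (adjusted p = 0.0131, limma), with 8.69 and 8.37 in DBA/2J and 8.77, 8.95 and 8.82 in C57BL/6J. Tpp1, the tripeptidyl peptidase lost in a form of Batten disease, read 9.78 and 9.79 in DBA/2J, against 9.48, 9.57 and 9.45 in C57BL/6J (+0.32 ± 0.09, adjusted p = 0.00723). Ctsk, the collagen-cutting cathepsin K, read 7.61 and 7.84 in DBA/2J, against 7.93, 7.84 and 7.95 in C57BL/6J (-0.16 ± 0.05, adjusted p = 0.0455). For Ctsk the groups nearly touched. Gm2a, Tpp1 and Ctsk each had an intraclass correlation of 0 among the BXD strains, so a difference between the parents stood beside no strain effect in their descendants. For Ctsc and Arsa, which varied in the BXD panel, the parents' values were 8.23 and 8.52 in DBA/2J, against 8.01, 8.09 and 7.84 in C57BL/6J for Ctsc (+0.33, adjusted p = 0.089), and 8.91 and 8.75 in DBA/2J, against 8.60, 8.69 and 8.69 in C57BL/6J for Arsa.

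Markers of oligodendrocytes moved with this comparison: 8 of 10 were lower in DBA/2J, and their mean per array was 9.24 and 9.39 in DBA/2J, against 9.57 to 10.2 in C57BL/6J. Their part in the result was not tested. With each of the 5 parental arrays left out in turn, 2 to 5 of the genes were called, the fewest without C57BL/6J replicate 3. Each of the 7 genes kept its direction and missed the threshold without at least 1 array. Without DBA/2J replicate 2 these were Gaa (-0.12, adjusted p = 0.633), Idua, Man2b1 (-0.14, adjusted p = 0.429) and Gm2a (-0.28, adjusted p = 0.381), and without DBA/2J replicate 1 they were Ctsk (-0.06, adjusted p = 0.734), Tpp1 (+0.24, adjusted p = 0.245), Idua and Manba. Without C57BL/6J replicate 1 they were Ctsk and Idua, without replicate 2 Ctsk, Manba and Gm2a, and without replicate 3 all but Manba and Gm2a. With the model fitted to the inbred arrays alone, none of the genes was called (limma), and 11 had an unadjusted p under 0.05. Such a fit changes the sex and batch terms as well as the spread. C57BL/6J replicate 2, then the only array of its batch, added nothing to that comparison.

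**Figure D2:**
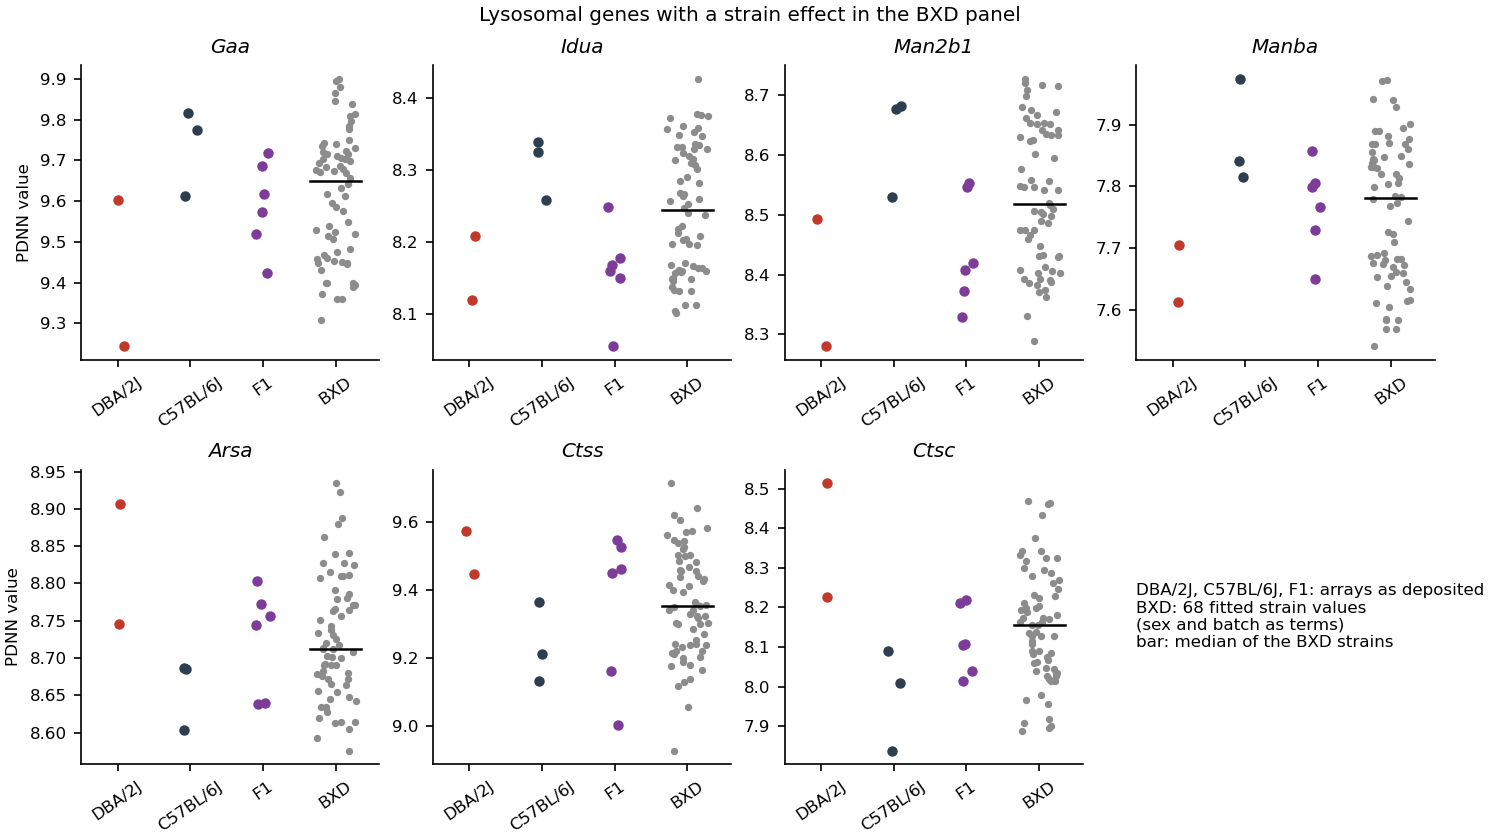
PDNN values of the 7 genes with a BXD strain effect: DBA/2J (2 arrays), C57BL/6J (3 arrays), both reciprocal hybrids together (6 arrays), as deposited, and 68 fitted BXD strain values with their median as a bar. The DBA/2J arrays lie below the C57BL/6J arrays for Gaa, Idua, Man2b1 and Manba, and above them for Arsa, Ctss and Ctsc, and the BXD values cover the span between the parents in every panel.

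Many BXD strains lay outside the range of their parents. For Manba, 3 strains were below both parents' fitted values, 42 between and 23 above. For Idua the counts were 23 below, 34 between and 11 above, and for Gaa 20, 40 and 8. Man2b1 had 11 strains below, 44 between and 13 above. The fitted parental values carry the error of 2 and 3 arrays, so strains beyond them by less than that error cannot be placed.

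Among the 13 CXB strains, 5 of 41 lysosomal genes differed (12.2%, beside 4.2% of all probe sets, limma): Ctss, Gaa, Idua, Ctsh and Grn. Of the 96 probe sets of the genes, 6 were called. Ctss had the highest intraclass correlation, 0.62 (adjusted p = 0.000443), with arrays of 9.65 and 9.87 in CXB7, the highest strain, and of 9.34 and 8.86 in CXB13, the lowest. Both CXB7 arrays lay above both CXB13 arrays, which were themselves far apart. The highest and lowest strains were picked from these same arrays, so a gap between them is no further support. CXB13 replicate 2 was among the arrays whose RMA outlier share reached 0.1. Gaa read 9.76 and 9.81 in CXB2 and 9.31 and 9.45 in CXB12 (0.56, adjusted p = 0.00503). Idua read 8.35 and 8.33 in CXB12 and 8.11 and 8.16 in CXB3 (0.56, adjusted p = 0.00617, limma).

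Ctsh read 8.10 and 8.30 in CXB7 and 7.82 and 7.89 in CXB12 (0.54, adjusted p = 0.00794, limma). Grn encodes progranulin, a secreted protein that lysosomes cut into granulins. It read 9.71 in both CXB7 arrays and 9.43 and 9.22 in CXB13 (0.46, adjusted p = 0.0376). CXB7 was thus the highest strain for Ctss, Ctsh and Grn. Over the 13 CXB strain values, r with the microglia marker mean was 0.77 for Ctss, 0.79 for Ctsh and 0.58 for Grn, and 0.84 for Ctsz, which had no CXB strain effect. The endothelium mean was as close, with 0.78 for Ctss, 0.66 for Ctsh, 0.79 for Grn and 0.83 for Ctsz, and the astrocyte mean had 0.71 for Ctss and 0.65 for Grn. The points share their batches, and the markers' part in the strain effect was not tested. With the model fitted to the CXB arrays alone, only Ctss of the 5 genes was called (adjusted p = 0.0083, limma). Of the 5 calls, 3 held with RMA values and 1 with MAS5 values. Without the arrays whose RMA outlier share reached 0.1, 1 of the 5 calls held.

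In the parents of the CXB panel and their sister strains, BALB/cByJ (1 array) and BALB/cJ (3 arrays) were set against C57BL/6ByJ (2 arrays) and C57BL/6J (3 arrays). Of the 41 genes 3 differed (5.12% of all probe sets did), all higher in the BALB strains (3% of all probe sets were higher and 2.12% lower). Of the 96 probe sets of the genes, 5 differed. Tpp1 read 9.70 in BALB/cByJ and 9.80, 9.68 and 9.64 in BALB/cJ, against 9.57 and 9.46 in C57BL/6ByJ and 9.48, 9.57 and 9.45 in C57BL/6J (+0.23 ± 0.07, SE, adjusted p = 0.0227, limma). All BALB arrays exceeded all C57BL/6 arrays. RNA quality and markers moved with this comparison: the actin 3' to 5' ratio was 1.13 in BALB/cByJ and 3.3, 3.1 and 1.26 in BALB/cJ, against 1.23 and 1.75 in C57BL/6ByJ and 1.67, 1.14 and 1.68 in C57BL/6J. Of 15 microglia markers 4 were lower in the BALB strains, and the 9 choroid plexus markers had a median difference of +0.39, with 1 called higher. Their part in the result was not tested, and without the arrays of high RMA outlier share, BALB/cJ replicates 1 and 2 among them, none of the 3 calls held.

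Ctsc read 8.29 in BALB/cByJ and 8.36, 8.49 and 8.12 in BALB/cJ, against 7.73 and 8.20 in C57BL/6ByJ and 8.01, 8.09 and 7.84 in C57BL/6J (+0.30 ± 0.10, adjusted p = 0.0459, limma). Lamp2 read 8.99 in BALB/cByJ and 9.42, 9.33 and 9.00 in BALB/cJ, against 8.61 and 9.03 in C57BL/6ByJ and 8.80, 9.00 and 8.57 in C57BL/6J (+0.29 ± 0.09, adjusted p = 0.0419). In both genes the groups overlapped. With each array left out in turn 0 to 4 of the genes were called. None was called without BALB/cJ replicate 1 or C57BL/6J replicate 3, and 1 without BALB/cJ replicate 2 or C57BL/6ByJ replicate 1. With the model fitted to the inbred arrays alone none was called (limma), while 5 had an unadjusted p under 0.05.

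Over the 17 inbred strains, 26 of the 41 genes (63.4%) and 56 of their 96 probe sets differed, beside 43.5% of all probe sets in the same limma F-test. The 26 genes were 10 of 12 proteases, 6 of 11 glycosidases, 1 of 3 sulfatases (Ids), 3 of 5 lipid enzymes (Galc, Smpd1 and Lipa), 3 of 4 cofactors (Gm2a, Npc2 and Grn) and 3 of 6 membrane proteins (Lamp1, Lamp2 and Scarb2). The inbred arrays scattered more than the others, with a median residual SD of the genes of 0.125 units, against 0.0833 in the BXD arrays. With the model fitted to the inbred arrays alone 9 of the 26 genes were called: Galc, Ctsh, Ctss, Lgmn, Tpp1, Lipa, Gm2a, Npc2 and Lamp1. Of the 41 genes, 14 had no strain effect in any panel, 18 had one among the inbred strains alone, and Ctss, Gaa and Idua had one in each panel.

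Galc, the galactosylceramidase that degrades the main glycolipid of myelin, had the highest intraclass correlation of all the genes, 0.94 (adjusted p = 1.99e-30, limma). It was called with the model fitted to the inbred arrays alone as well. The strains fell apart with nothing between them. The low strains were 129S1/SvImJ with arrays at 7.59 and 7.63, LG/J at 7.66 and 7.67, WSB/EiJ at 7.64 and 7.69, NZO/HlLtJ at 7.63 and 7.75, and KK/HIJ at 7.62 and 7.93. All arrays of the other 12 inbred strains lay between 8.27, an AKR/J array, and 8.69, a BALB/cJ array. Among the BXD strains, whose parents both belong to the high strains, Galc had an intraclass correlation of 0.

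Against the other classical strains, Galc was lower by -0.66 units in 129S1/SvImJ (adjusted p = 2.67e-14, limma), -0.60 in LG/J, -0.57 in NZO/HlLtJ, -0.55 in WSB/EiJ and -0.47 in KK/HIJ. It was higher by 0.45 units in NOD/LtJ, 0.37 in BALB/cJ, 0.28 each in A/J and C3H/HeJ, and 0.25 in C57BL/6J, against means that include the low strains. The other 2 probe sets of the gene did not show the low strains. The second probe set was highest in 129S1/SvImJ, at 7.90 and 7.88. The third had its lowest fitted values in AKR/J (7.256), 129S1/SvImJ (7.257) and NZO/HlLtJ (7.270). LG/J, KK/HIJ and WSB/EiJ, also low for the brightest probe set, were at 7.317, 7.421 and 7.443. The intraclass correlations of the second and the third probe set were 0.45 and 0.55. Over the inbred arrays the second ran from 7.51 to 7.90 and the third from 7.24 to 7.56, and whether probe sets as dim as these could show such a fall was not tested.

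**Figure D3:**
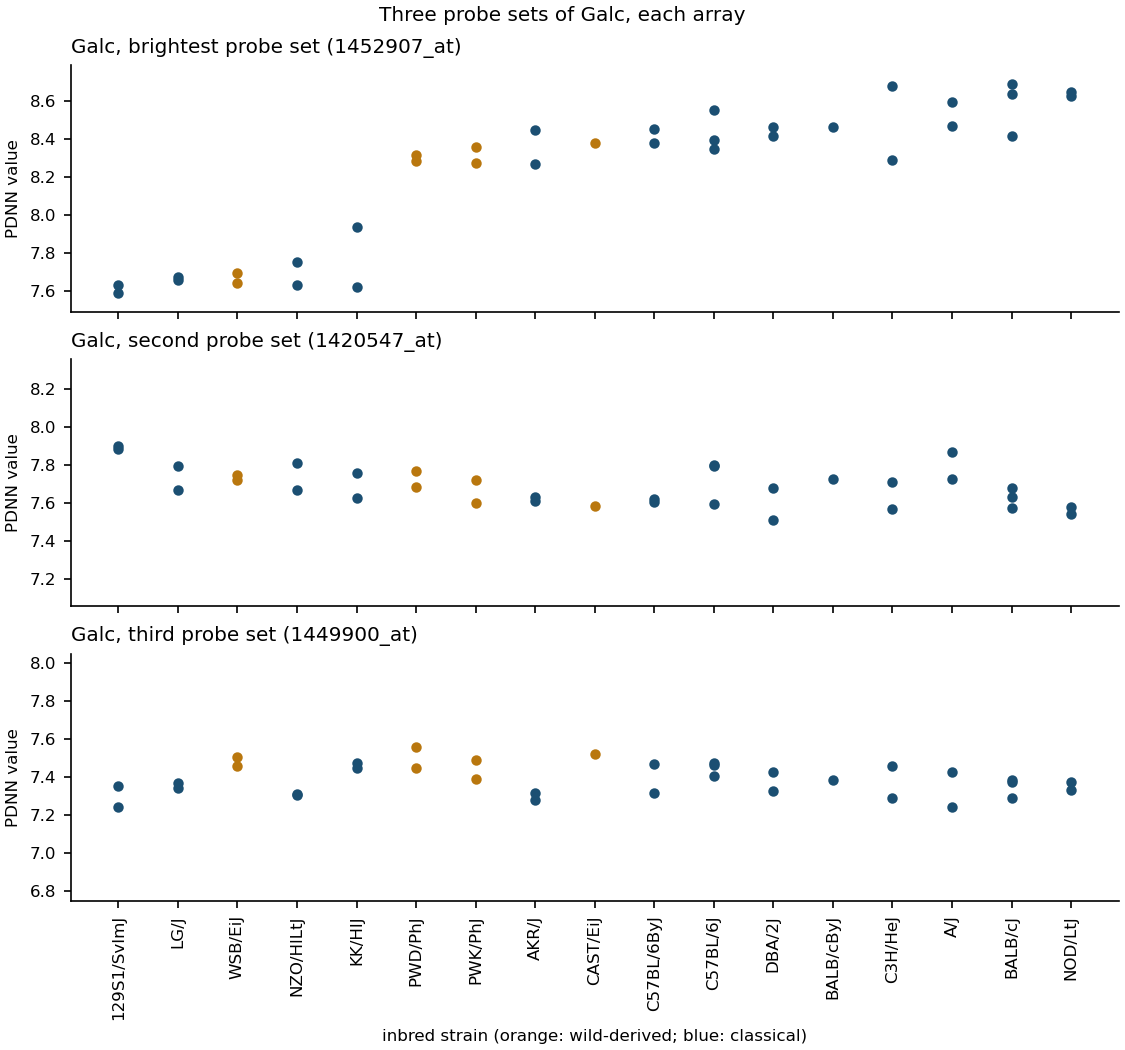
PDNN values of the 3 Galc probe sets (vertical axes) in each inbred array, strains ordered along the horizontal axis by their mean for the brightest probe set, wild-derived strains in orange and classical strains in blue. The brightest probe set puts 5 strains at 7.59 to 7.93 apart from 12 strains at 8.27 to 8.69, and the other probe sets do not show that gap.

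The wild-derived strains, taken as a group of 4 strain values against 13 classical ones, differed in 4 of 41 genes and 8 of their 96 probe sets (3.9% of all probe sets did). All 4 genes were lower in the wild-derived strains (1.99% of all probe sets were lower and 1.92% higher): Npc2, Lgmn, Ctsb and Lamp1. Npc2, which hands cholesterol to Npc1, had fitted values of 8.98 in CAST/EiJ, 8.90 in PWD/PhJ, 9.05 in PWK/PhJ and 9.11 in WSB/EiJ, against a lowest of 9.07 (KK/HIJ), a median of 9.38 and a highest of 9.69 in the classical strains. The difference was -0.37 ± 0.09 (SE, adjusted p = 0.0305, limma), and a second Npc2 probe set gave -0.36 (adjusted p = 0.00196). The other 2 Npc2 probe sets gave +0.04 and +0.14 and did not pass the test (adjusted p = 0.343 and 0.0617). WSB/EiJ overlapped the classical strains and the other wild-derived strains did not.

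Lgmn, the asparaginyl endopeptidase that matures several cathepsins, had 8.24 in CAST/EiJ, 8.52 in PWD/PhJ, 8.36 in PWK/PhJ and 8.81 in WSB/EiJ, against 8.66 to 8.95 in the classical strains (-0.30 ± 0.08, adjusted p = 0.0351, limma). Only WSB/EiJ lay inside the classical range. Ctsb, cathepsin B, had 10.04, 10.23, 10.22 and 10.28 in the same order, against 10.22 to 10.61 in the classical strains (-0.24 ± 0.06, adjusted p = 0.0295), but another Ctsb probe set went the other way (+0.17, adjusted p = 0.0435). Lamp1, the most abundant glycoprotein of the lysosomal membrane, had 10.11, 10.22, 10.25 and 10.25, against 10.24 to 10.63 (-0.23 ± 0.06, adjusted p = 0.0476). For Ctsb, CAST/EiJ lay well below the lowest classical strain and the other wild-derived strains close to it on either side. For Lamp1, CAST/EiJ and PWD/PhJ lay below the classical strains, and PWK/PhJ and WSB/EiJ overlapped them.

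RNA quality moved with this comparison, since the ratio of 3' to 5' signal of actin had a median of 2.32 in the wild-derived arrays, against 1.67 in the classical arrays. The oligodendrocyte marker mean was 9.28 to 9.59 in the wild-derived arrays, against 9.21 to 10.2 in the classical ones. Called lower were 1 of 10 oligodendrocyte, 2 of 10 astrocyte, 1 of 4 dentate granule and 2 of 9 choroid plexus markers. Of all probe sets 1.99% were called lower. The part of RNA quality or of the markers was not tested. Without CAST/EiJ, and likewise without PWD/PhJ, none of the genes was called (limma), while 11 and 8 had an unadjusted p under 0.05. Without WSB/EiJ 6 genes were called. None of the 4 calls held with RMA values, with MAS5 values or without the arrays of high RMA outlier share.

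**Figure D4:**
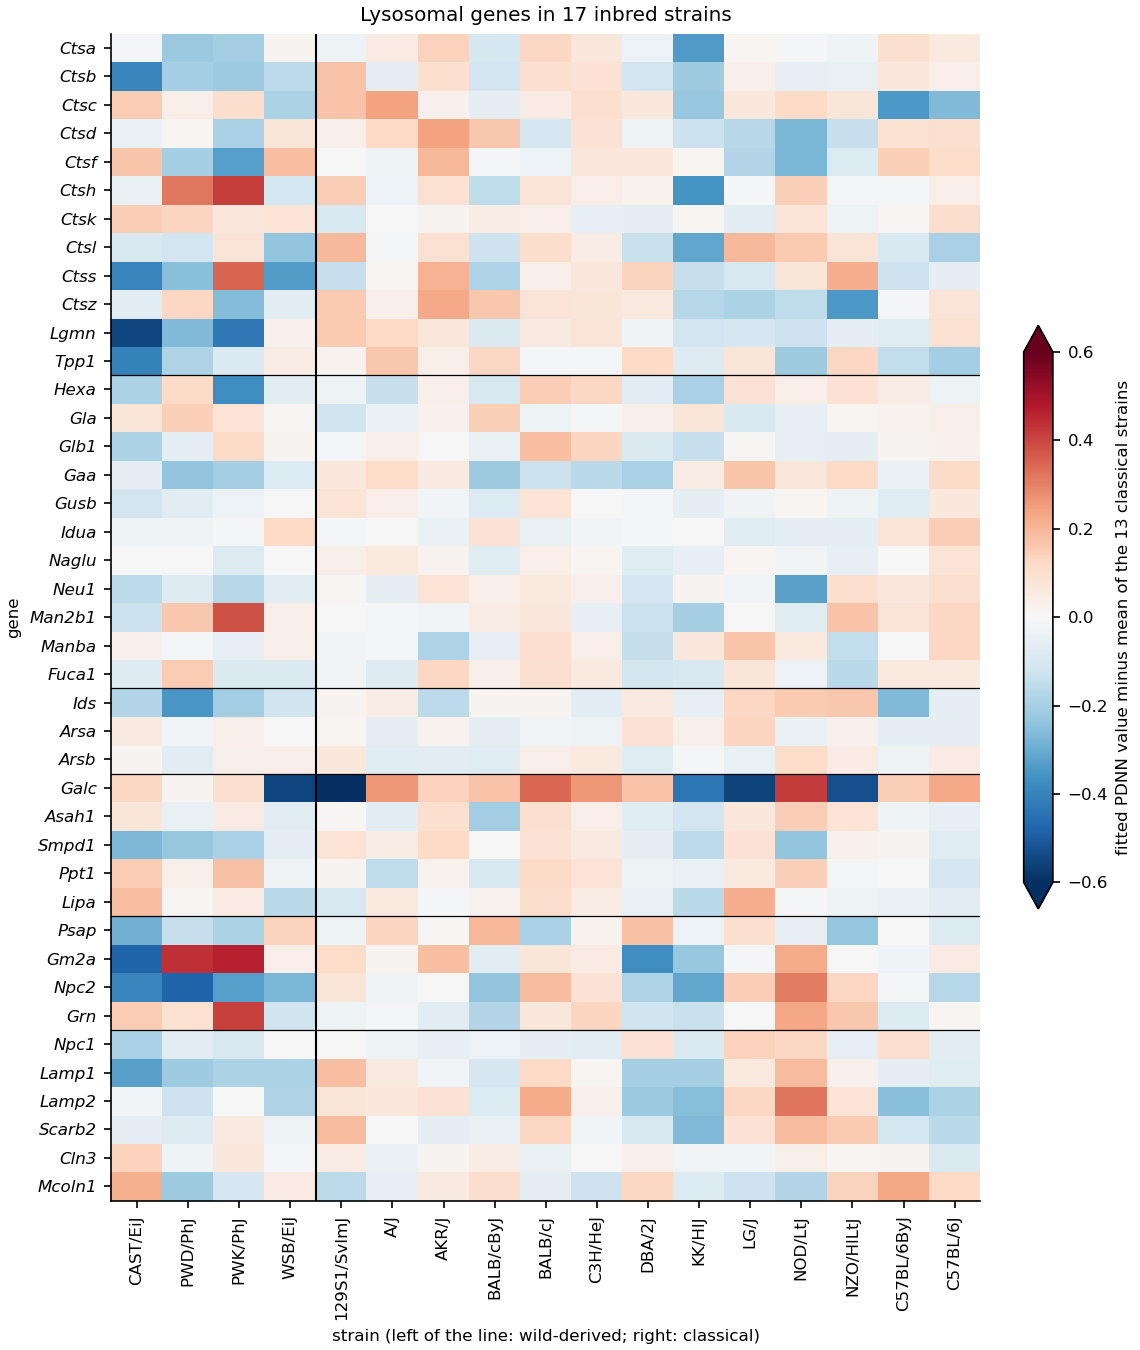
Fitted PDNN values of the 41 lysosomal genes (rows, grouped by role) in 17 inbred strains (columns), as differences from the mean of the 13 classical strains, with wild-derived strains left of the line. Blue cells are lower and red cells higher, with the scale ending at 0.6 units: Npc2 is blue in all 4 wild-derived strains, and Galc is dark blue in WSB/EiJ and 4 classical strains.

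Set one by one against the other classical strains, the 17 inbred strains gave 66 calls among the 41 genes. PWK/PhJ had 13 genes called (12.8% of all probe sets were), PWD/PhJ 12 (16%), CAST/EiJ 7 (10.7%), C57BL/6J 7 (12.9%), NOD/LtJ 7 (5.51%) and KK/HIJ 6 (2.7%). For WSB/EiJ it was 2 (3.49%), as for LG/J (1.54%), NZO/HlLtJ (3.91%) and C57BL/6ByJ (2.53%). A single gene was called in 129S1/SvImJ (3.1%), A/J (0.868%), AKR/J (4.07%), BALB/cJ (2.34%), C3H/HeJ (1.04%) and DBA/2J (2.77%), and none of 41 in BALB/cByJ (0.346%), where 3 had an unadjusted p under 0.05 in limma. With the model fitted to the inbred arrays alone 22 of the 66 calls held.

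PWK/PhJ and PWD/PhJ were both high in Gm2a and Ctsh. Gm2a read 9.30 and 9.19 in PWK/PhJ and 9.32 and 9.33 in PWD/PhJ, against 8.37 to 9.10 (median 8.82) in the 27 classical arrays, differences of +0.47 ± 0.09 and +0.44 ± 0.10 (adjusted p = 8.32e-05 and 0.000305, limma). CAST/EiJ went the other way with 8.39 (-0.48 ± 0.13, adjusted p = 0.0079). Ctsh read 8.46 and 8.34 in PWK/PhJ and 8.38 and 8.29 in PWD/PhJ, against 7.58 to 8.23 in the classical arrays (+0.41 and +0.32). In both genes all arrays of PWK/PhJ and PWD/PhJ lay above all classical arrays, and each of these calls held with the model fitted to the inbred arrays alone. A second Ctsh probe set went the other way, with -0.16 in PWK/PhJ (adjusted p = 0.0381, limma) and -0.22 in PWD/PhJ (adjusted p = 0.00305), so the direction for Ctsh depended on the probe set.

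PWK/PhJ was also high in Man2b1, with 8.92 and 8.83 against 8.26 to 8.68 in the classical arrays (+0.38 ± 0.05, adjusted p = 1.46e-08, limma), and in Grn, with 9.89 in each array against 9.30 to 9.81 (+0.41 ± 0.07, adjusted p = 6.04e-06). Neither overlapped the classical arrays. It was low in Lgmn (-0.43) and in Hexa, the alpha subunit of hexosaminidase A, with 8.78 and 8.62 against 8.83 to 9.42 (-0.37 ± 0.08, adjusted p = 0.000136). PWD/PhJ was low in Npc2, with 8.91 and 9.01 against 9.02 to 9.76 (-0.48 ± 0.10, adjusted p = 0.000155). Another Npc2 probe set was higher in both strains, by 0.23 in PWK/PhJ (adjusted p = 3.43e-06, limma) and by 0.22 in PWD/PhJ (adjusted p = 1.79e-05). Without the 7 arrays whose headers disagreed with their labels, PWD/PhJ replicate 1 among them, Npc2 fell short of the threshold in PWD/PhJ. Its difference was then -0.40, on 1 PWD/PhJ array.

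CAST/EiJ, with 1 array, was low in Lgmn (8.26, -0.55 ± 0.13, adjusted p = 0.00216, limma) and in Tpp1 (9.34, -0.40 ± 0.09, adjusted p = 0.00131), and both values lay below all classical arrays. With 1 array, the error of these values is that of the other strains' arrays, and this array had an actin 3' to 5' ratio of 2.74 and an RMA outlier share of 0.14. Among classical strains, KK/HIJ had 6 genes called, all lower. The difference was below 0 for 34 of 41 genes, while it was above 0 for 51.7% of all probe sets. Its Ctsh arrays read 7.58 and 7.67 (-0.38 ± 0.06, adjusted p = 9.1e-07), and its Ctsa arrays, of the cathepsin A that stabilises beta-galactosidase and sialidase, read 8.53 and 8.63 (-0.37 ± 0.07, adjusted p = 0.000465). The oligodendrocyte marker mean of the KK/HIJ arrays was 9.21 and 9.31, at the low end of the classical range, and its part was not tested. Without the 7 arrays whose headers disagreed with their labels, KK/HIJ rested on 1 array, and Man2b1, Npc2 and Scarb2 were no longer called in it. In that same fit 52 of the 66 single-strain calls held.

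Other single strains differed in genes of several roles. LG/J was high in Lipa, the acid lipase of cholesteryl esters, at 8.51 and 8.46 (+0.24 ± 0.06, adjusted p = 0.00604, limma). NOD/LtJ was low in the sialidase gene Neu1 at 7.95 and 8.21 (-0.35 ± 0.07, adjusted p = 0.000146) and high in Lamp2 (+0.35), Npc2 (+0.33) and Grn (+0.25). The NOD/LtJ arrays had actin 3' to 5' ratios of 2.89 and 3.09, against a median of 1.67 in the classical arrays, and oligodendrocyte means of 9.95 and 10.15, near the top of the classical range. The part of either was not tested. C57BL/6J was high in Idua (+0.16 ± 0.03, adjusted p = 0.000297), Man2b1 (+0.14) and Manba (+0.13), in a comparison that uses the same C57BL/6J arrays as that with DBA/2J. AKR/J was low in Manba (-0.20 ± 0.05, adjusted p = 0.0192). Of these, the calls of Lipa in LG/J and of Idua in C57BL/6J held with the model fitted to the inbred arrays alone.

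Sex and age left no call. Between male and female pools within strains, 0 of 41 genes differed in limma (smallest adjusted p = 0.9997, beside 0.118% of all probe sets), and 1, Arsb, had an unadjusted p under 0.05, as did 1871 of all probe sets. The 3 genes on the X chromosome were alike in level: Gla averaged 7.99 in males and 7.99 in females, Ids 10.7 and 10.7, and Lamp2 8.88 and 8.88, with male minus female differences of -0.0036 ± 0.0120, 0.0083 ± 0.0138 and 0.0087 ± 0.0187 units (SE). For pool age 0 of 41 genes had an adjusted p under 0.05 in limma (0.00222% of all probe sets did). An unadjusted p under 0.05 was found for Ctsh, Ctss and Lgmn, with slopes of -0.011, -0.016 and -0.017 units per 10 days, and for 1148 of all probe sets.

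Across the 68 BXD strain values the genes tended to go together. The median Pearson's r over their 820 pairs was 0.23, against -0.004 over all pairs of 18193 genes, and 152 pairs exceeded 0.5. Without BXD9 the median was 0.18 and 118 pairs exceeded 0.5. Npc2 and Lamp2 were closest (r = 0.88), followed by Ctsl with Npc2 (0.83), Ctsb with Lamp1 (0.81), Ctsl with Lamp2 (0.80) and Ctsa with Ctsz (0.75). Gla, the alpha-galactosidase A gene, went against several others, most of all Lamp1 (r = -0.69).

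These relations were not those of the genes with a BXD strain effect. Among the 7 genes with one the median r over 21 pairs was 0.03, with 1 pair above 0.5, and among the 34 genes without one it was 0.32 over 561 pairs, with 142 above 0.5. Arrays of a strain also varied together, although which pairs did so was not compared: over the residuals of 199 arrays, after strain, sex and batch, the median r of the 820 pairs was 0.26, against 0 over all gene pairs, and 176 pairs exceeded 0.5. The strain values share batches and each array's overall state, and with MAS5 values in place of PDNN the median over BXD strains was 0.07. Genes with CACGTG in the promoter window were no closer to each other, with a median r of 0.15 (13 genes, 78 pairs), against 0.28 in those without it (24 genes, 276 pairs).

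**Figure D5:**
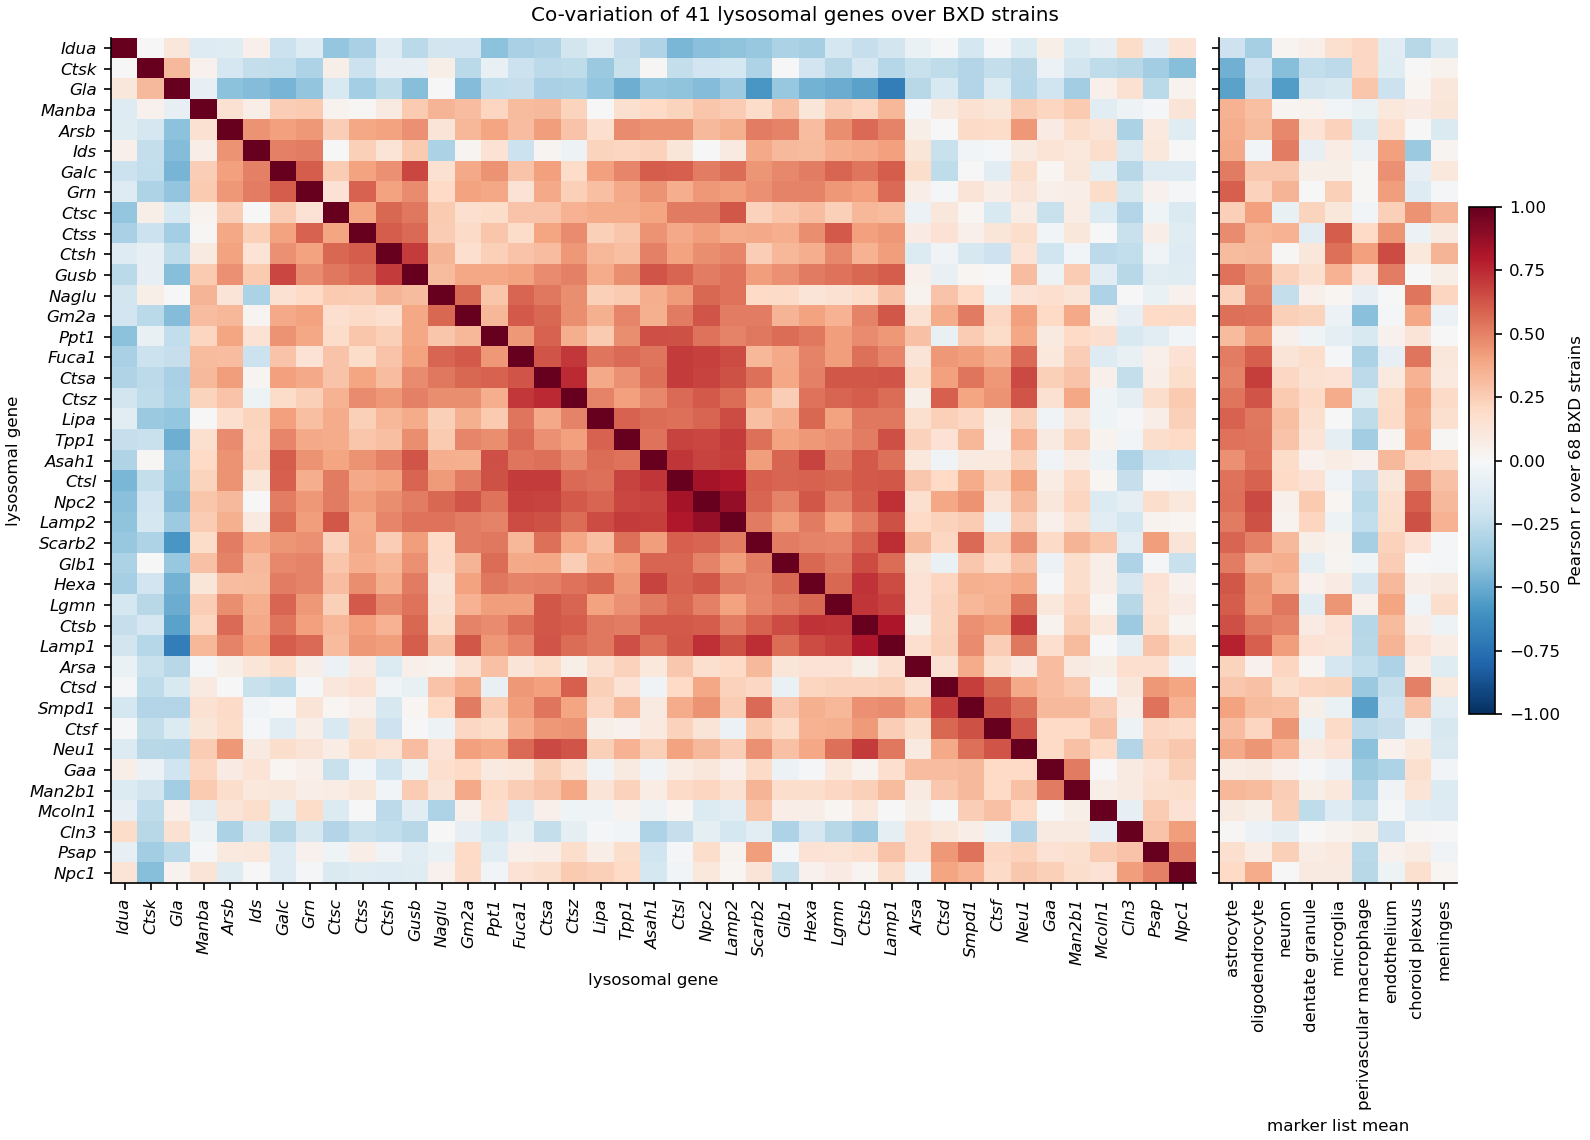
Pearson's r over 68 BXD strain values between the 41 lysosomal genes (left, ordered by similarity) and between each gene and the mean of 9 cell type marker lists (right). Red cells go together and blue cells inversely: Npc2, Lamp2, Ctsl, Ctsb and Lamp1 lie in the red block, and Gla is blue against it.

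Cell type markers moved with the genes. The astrocyte marker mean had a median r with the 41 genes of 0.40 over the BXD strains (0.38 without BXD9) and exceeded 0.5 for 17, led by Lamp1 (0.77). The oligodendrocyte mean had a median of 0.37 (0.33 without BXD9) and exceeded 0.5 for 13, led by Ctsa (0.69). The neuron mean had a median of 0.23, and Gla went against it (-0.56). The microglia mean had a median of 0.07 and exceeded 0.5 only for Ctss (0.60) and Ctsh (0.55). The endothelium mean had a median of 0.10 and was closest to Ctsh (0.65), and the perivascular macrophage mean had a median of -0.22, with Smpd1 lowest (-0.54). The choroid plexus mean exceeded 0.5 for 5 genes, led by Lamp2 (0.63). For Ctss the relation with microglia markers also held between arrays of a strain (r = 0.65), and 7 of 15 microglia markers had a BXD strain effect of their own. Over all the marker lists, the 4 glycosidases that varied most between BXD strains had r between -0.35 (Gaa with perivascular macrophages) and 0.34 (Manba with astrocytes). The markers' part in these relations was not tested.

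Of 61 other lysosomal genes, 54 had a probe set of their own. BXD strain effects were found for 2 of them (6.95% of all probe sets had one), Slc17a5, which exports sialic acid (intraclass correlation 0.65), and Atp6v1g1, a subunit of the proton pump (0.48), and CXB strain effects for 2 (4.2% of all), Slc17a5 (0.71) and Laptm5 (0.48). Among the inbred strains 33 of 54 differed, beside 43.5% of all probe sets. Between the BXD parents 2 differed (7.24% of all): Sorl1, a sorting receptor, was higher in DBA/2J (+0.60, adjusted p = 0.00631, limma) and Atp6v0a1, another pump subunit, lower (-0.50, adjusted p = 0.0261). Tfeb, which encodes TFEB, and its relatives Tfe3, Mitf and Tfec did not pass limma's test for a BXD strain effect (intraclass correlations of 0 to 0.26), and none of the 54 genes passed it for sex or age.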

How the data were processed

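Pooled hippocampal RNA was hybridised to 201 arrays, and the authors deposited PDNN scores per probe set, normalized by them and stated, per the file headers, to have a mean of 8 and an SD of 2. Measured here, array means lay between 8.06 and 8.10, and their SDs between 0.630 and 0.799. The deposited RMA and MAS5 scores served as alternatives. The depth of an array is its number of probes, and 43.3 to 55.3% of probe sets per array were called present.

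All 45037 probe sets were fitted at once with limma 3.58.1 (R 4.3.3, with data.table, version 1.17.8), with terms for strain, sex and 7 batches. A technical duplicate was averaged and the pool of mixed sex left out, which gave 199 columns and 92 residual degrees of freedom. P-values were adjusted over all probe sets (Benjamini-Hochberg), with a threshold of 0.05, and the fit was tested on simulated data. The genes named are the 41 genes and, for those with an intraclass correlation of 0.5 or more in BXD, the 5 most alike genes by Pearson's r. The genes, lists and tests were chosen with earlier results of these data known. Alternatives were other summaries, filters, terms and array sets. Arrays were also left out in turn: 20 drawn at random for strain effects, sex and age, and every array of the parental comparisons. Promoter sequences came from RefSeq.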

Additional observations from a re-analysis of the deposited data

Results flagged for a closer look

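In 4 of the 41 genes, 1 of the 4 wild-derived strains lay far from the other 3, judged by its gap to the nearest strain relative to the whole range (Dixon's test). Chance gives this in about 1 in 20 groups. Galc was at 7.59 in WSB/EiJ, against 8.16 to 8.27 in the other 3 strains. Idua was at 8.31 in WSB/EiJ, against 8.17 to 8.18. Fuca1, the alpha-fucosidase gene, was at 8.88 in PWD/PhJ, against 8.65, and Naglu was at 7.64 in PWK/PhJ, against 7.71 to 7.72.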

How the results depend on the processing

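For the strain effects, sex and age, 20 arrays drawn at random from all were left out in turn. The number of the 41 genes called was 7 to 9 for BXD, 4 to 5 for CXB, 26 to 28 for the inbred strains and 0 for sex and age. With each array of the compared strains left out in turn, it was 2 to 5 for DBA/2J against C57BL/6J and 0 to 4 for BALB against C57BL/6 strains. With each wild-derived strain left out in turn, it was 0 to 6 for wild-derived against classical strains. Leaving out BXD9, an alternative chosen after the data were seen, left 7 genes in BXD. With RMA values 1 gene was called in the wild-derived comparison, and it was none of the 4 reported. In the RMA scores, all C57BL/6J columns matched PDNN values of BALB/cJ arrays (r = 0.86 to 0.94) better than those of their own label (-0.22 to 0.39). BXD14 replicate 2 likewise matched BXD45 replicate 2 (0.64, against -0.16). These 4 columns were left out. RMA thus gave no DBA/2J or BALB comparison, and its inbred and single-strain fits lacked C57BL/6J. With MAS5 values 2 were called in CXB, 3 in DBA/2J, 1 in BALB and 0 in the wild-derived comparison (6 at an unadjusted p under 0.05). Quantile normalization, and rescaling each array to the stated mean and SD (added after the data were seen), each left 2 in the wild-derived comparison. Without a batch term 3 were called in DBA/2J and 0 in BALB (6 unadjusted). Without the arrays whose RMA outlier share reached 0.1, 1 was called in CXB, 17 in the inbred strains, 0 in BALB (2 unadjusted), 1 in the wild-derived comparison and 36 over single strains. Without arrays whose header disagreed with the label, 1 was called in BALB. In the main fit, with every probe set of the genes counted, 5 genes were called in BALB. Fitting the model to a panel's own arrays was also added after the data were seen. With it, 1 was called in CXB, 9 in the inbred strains, 0 in DBA/2J, 0 in BALB, 2 in the wild-derived comparison and 22 over single strains. These counts are from limma, and the cause of the changes was not tested beyond the fewer arrays used. The sign turned for Lamp1 in PWD/PhJ (0.031 with RMA), for Ids in PWK/PhJ (0.065 with RMA and 0.087 with MAS5) and for Ids in PWD/PhJ (0.0032 with MAS5). No paired analysis was possible because the replicate numbers follow accession order and pair no arrays across strains. Few arrays per inbred strain, and signals near background for dim probe sets, limit the smaller differences.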
